A study of Homo sapiens with 4 samples.

Results

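The 7 genes described here are 4 IFIT genes (IFIT1, IFIT2, IFIT3 and IFIT5) and 3 IFITM genes (IFITM1, IFITM2 and IFITM3), chosen by symbol from the 33538 genes listed in each library. Each was followed as summed UMIs (distinct molecules) over the kept cells of a library, as CPM (UMIs per 1000000 UMIs of that library) and as the share of cells that held at least 1 UMI of it. The question was how the IFIT genes, which interferon is known to induce from a low level, compared at each day with the IFITM genes, of which IFITM2 and IFITM3 were abundant in every library.

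Type I interferon signals through a receptor pair and its kinases to transcription factors that bind the interferon-stimulated response element of target genes. IFIT proteins are made of tetratricopeptide repeats and bind foreign RNA in the cytosol. IFIT1 recognises capped RNA that lacks a 2′-O methyl mark, IFIT2 and IFIT3 form complexes with it, and IFIT5 binds RNA with a 5′ phosphate. IFITM proteins sit in membranes and block the fusion of incoming viruses, IFITM1 mainly at the cell surface and IFITM2 and IFITM3 in endosomes. In epithelia of the gut both families belong to the first antiviral defence.

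The cells were of the line HCEC 1CT, derived from human colonic epithelium and immortalised by TERT together with CDK4. An shRNA that targets APC (shAPC) or, as the control, a scrambled sequence (shScr) was introduced, puromycin selection followed, and cells were harvested 3 or 7 days after transduction. Either shRNA at either day was 1 library, 4 in all, so there was no replicate and no test, and every interval below is a 95% interval that covers counting error only. All cells had thus been transduced with a virus, selected in the same medium and derived from 1 line, and no untransduced cells were analysed here.

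The sequences below show where the interferon-stimulated response element lies before the start of these genes. They come from the RefSeq promoter table (GRCh38.p14, the hg38 sequence), which matched 5 of the 7 genes with 6 promoters; IFIT2 and IFITM2 were not matched. Capitals mark GAAANNGAAA, the core of the element, or its reverse complement TTTCNNTTTC, searched on both strands in the 250 bases before the start, overlaps included. Each line is read 5′ to 3′ on the strand of the gene.
IFIT1, chr10:89392487-89392545, plus strand: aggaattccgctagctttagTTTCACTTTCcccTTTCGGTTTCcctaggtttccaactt
IFIT3, chr10:89327821-89327904, plus strand: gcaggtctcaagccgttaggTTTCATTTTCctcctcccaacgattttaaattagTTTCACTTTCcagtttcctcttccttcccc
IFIT5, chr10:89414538-89414567, plus strand: cttacgtttagTTTCGATTTCttaagtttc
IFITM1, chr11:313990-314019, plus strand: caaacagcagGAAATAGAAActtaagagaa
IFITM3, chr11:320866-320932, minus strand: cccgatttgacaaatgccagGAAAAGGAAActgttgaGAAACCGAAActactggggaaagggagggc
The core was found in all 6 promoters and at least 2 times in 5 of them, IFITM1 holding it 1 time. Of all 35116 promoters in the table, 3.02% held the core at least 1 time and 0.225% at least 2 times. In the 3 IFIT genes with a promoter the matches read TTTCNNTTTC on the strand of the gene, whereas in both IFITM genes they read GAAANNGAAA. The element is known from genes of this kind, so the matches describe the letters and show no binding. For IFIT5 and IFITM1 a short stretch around the match nearest to the start is printed, because it overlaps an annotated exon, and of the pair of IFIT3 promoters the first is shown.

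In the annotation of hg38 (GENCODE 44) the IFIT genes lie side by side on the plus strand of chromosome 10. IFIT2 (ENSG00000119922) spans 89283694 to 89309271, IFIT3 (ENSG00000119917) 89327307 to 89377473, IFIT1 (ENSG00000185745) 89392546 to 89406487 and IFIT5 (ENSG00000152778) 89414568 to 89421605. The IFITM genes lie on chromosome 11, with IFITM2 (ENSG00000185201) at 303655 to 309397 and IFITM1 (ENSG00000185885) at 310041 to 315272 on the plus strand and IFITM3 (ENSG00000142089) at 319676 to 329475 on the minus strand. LIPA runs against IFIT2, IFIT3 and IFIT1 on the other strand and was at 30.9 CPM in shScr and 38.2 in shAPC at day 3 and at 30.6 and 35.1 at day 7. Wherever 4 values follow one another, they keep this order, with day 3 before day 7 and shScr before shAPC within each day. AL353751.1, which overlaps exons of IFIT2 on its own strand, had 19, 34, 11 and 16 UMIs. The 3′ ends, where this assay counts, were compared over the last 400 bases of each canonical transcript. No stretch of 50 bases was shared between any IFIT genes. Among the IFITM genes, 26.2% of such stretches of IFITM1 occurred in IFITM3, 14.2% in IFITM2, and 14.5% of those of IFITM2 occurred in IFITM3. For stretches of 90 bases these shares were 16.7%, 3.22% and 3.22%. IFITM2 and IFITM3 were 94.6% identical over 332 aligned bases of these ends. How reads from these shared stretches were assigned is not given in the sources used here, and the split between the IFITM genes is uncertain to that extent.

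APC, the target of the shRNA, was at 16.1 CPM (14.8 to 17.4) in shScr and 5.52 CPM (4.77 to 6.36) in shAPC at day 3, and at 19.1 CPM (17.6 to 20.7) and 6.61 CPM (5.70 to 7.62) at day 7. The kept cells numbered 788 to 2600 and their UMIs 28451455 to 39797418 per library. The filter on genes, UMIs and mitochondrial share kept 75.9%, 75.3%, 71.2% and 48.7% of the deposited barcodes, the smallest share in shAPC day 7. The median UMIs per kept cell were 35109, 49685.5, 1330 and 21029.5, so that shScr day 7 was by far the shallowest library. Pairs of libraries shared 1 to 19 barcodes among the kept cells. Of the epithelial markers, EPCAM, CDH1, KRT20, CDX2 and VIL1 had at most 2 UMIs in any library and KRT8 and KRT18 were at 3.02 to 19.4 CPM, whereas VIM was at 4010 to 5303 CPM. The summed immune markers were at 0.562 to 0.944 CPM and the endothelial ones at 0.0320 to 0.126 CPM. The label of the line as epithelial was thus not borne out by its defining markers, and the cells are called here by the name of the line.

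IFIT1, IFIT2 and IFIT3 were highest in shAPC day 3 and lowest in shAPC day 7, with shScr between them at both days. IFIT1 was at 41.3 CPM (39.3 to 43.4) in shScr day 3, 200.2 (195.5 to 204.9) in shAPC day 3, 32.5 (30.5 to 34.6) in shScr day 7 and 17.5 in shAPC day 7, the last from 498 UMIs. IFIT3 followed it closely at 41.7, 182.8, 30.8 and 18.2 CPM. IFIT2 was at 21.2, 99.8, 16.7 and 8.33 CPM, about 1 IFIT2 UMI for each pair of IFIT3 UMIs in all libraries. The ratio of IFIT2 to IFIT3 UMIs was 0.509, 0.546, 0.544 and 0.458, and that of IFIT1 to IFIT3 was 0.990, 1.10, 1.06 and 0.961. As library sums these 3 genes therefore kept nearly the same proportions while their summed level ranged from 44.04 to 482.8 CPM. The proportion of IFIT2 rested partly on few cells. In shAPC day 3, 3 cells held 28.1% of its UMIs, and without them IFIT2 was at 72.2 CPM and IFIT3 at 171.1.

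IFIT5 stood apart from its neighbours. It was at 17.3 CPM (16.1 to 18.7), 29.8 (28.0 to 31.7), 16.1 (14.8 to 17.6) and 15.4 (14.0 to 16.9), and apart from shAPC day 3 each of these intervals overlapped the others. For each IFIT5 UMI there were 6.01, 16.2, 4.96 and 2.87 UMIs of IFIT1 to IFIT3. IFIT5 was thus the lowest IFIT gene in both day 3 libraries, whereas in shAPC day 7 it exceeded IFIT2 and its interval overlapped those of IFIT1 and IFIT3.

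The IFITM genes differed widely in level among themselves. IFITM3 was the most abundant of the 7 genes in every library, at 590.6 CPM (583.1 to 598.2), 1345 (1333 to 1357), 550.5 (542.3 to 558.8) and 360.5 (353.6 to 367.6). IFITM2 came next at 441 (435 to 448), 512 (505 to 520), 304 (298 to 310) and 238 (232 to 243) CPM. IFITM1 was the least abundant of the 7 at 4.87 (4.21 to 5.61), 19.8 (18.4 to 21.3), 5.03 (4.27 to 5.88) and 1.62 (1.18 to 2.16) CPM, the last from 46 UMIs in 43 cells. A 3′ UMI counts a molecule whatever the length of its transcript, so these levels were compared between genes without scaling by length. IFITM1 was thus no abundant gene in this line. Its shAPC to shScr ratio was near that of the IFIT sum at day 3, with a log2 contrast of 0.05 (-0.19 to 0.29). At day 7 IFITM1 parted from the IFIT sum, with a contrast of 0.94 (0.45 to 1.46).

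**Figure D1:**
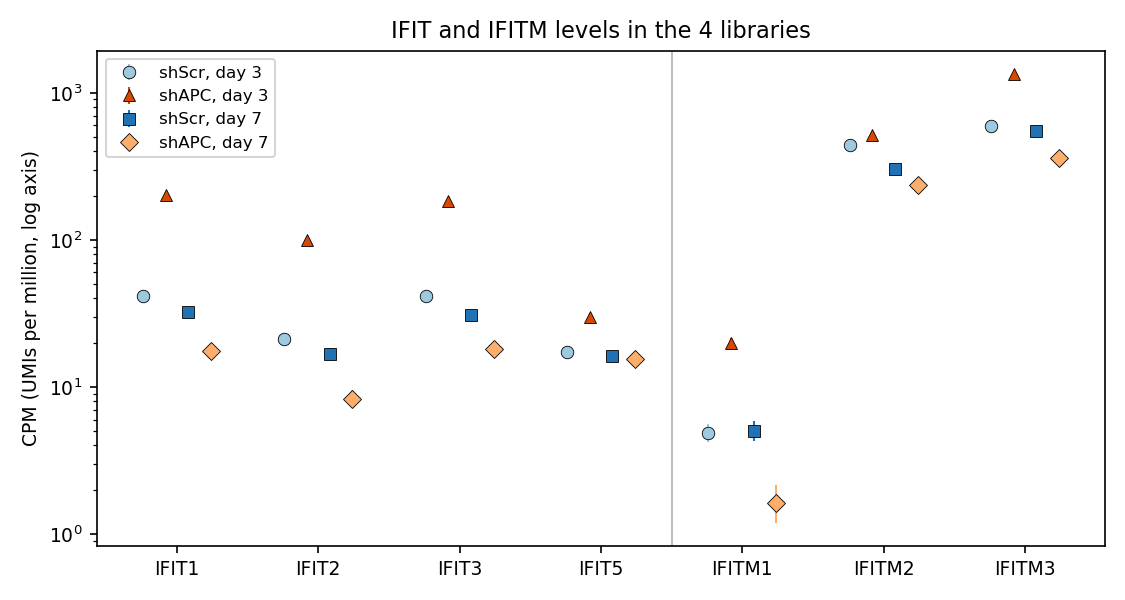
CPM of the 7 genes on a log axis in the 4 libraries (circles, shScr day 3; triangles, shAPC day 3; squares, shScr day 7; diamonds, shAPC day 7), with bars for the 95% counting interval, mostly hidden by the symbols. The shAPC day 3 triangle is the highest point of every gene and the shAPC day 7 diamond the lowest, IFITM3 and IFITM2 lie above all IFIT genes in each library, and IFITM1 lies lowest.

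At day 3, all 7 genes were higher in shAPC than in shScr with intervals above no change, a call not counted over all genes. IFIT1 was 4.85-fold higher (log2 2.28, 2.20 to 2.36), IFIT2 4.70-fold (2.23, 2.12 to 2.34) and IFIT3 4.38-fold (2.13, 2.05 to 2.21). IFITM1 was 4.06-fold higher (2.02, 1.79 to 2.26) and IFITM3 2.28-fold (1.19, 1.16 to 1.21). IFIT5 was 1.72-fold higher (0.78, 0.64 to 0.92) and IFITM2 1.16-fold (0.21, 0.18 to 0.24). The last of these lay below the median log2 ratio of all genes, 0.28, and its sign turned to -0.17 with TMM scaling, which lowers every log2 ratio at day 3 by 0.38. Culture, library, sequencing and the version of the counting software (Cell Ranger 3.0.2 for shScr and 3.0.0 for shAPC) went with the shRNA at both days and cannot be told apart from it.

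The background of this comparison was taken over the 5175 genes with at least 20 CPM in 1 of the 2 libraries, of which 200 (3.86%) were at least 2-fold higher in shAPC and 22 (0.425%) at least 2-fold lower, on log2(CPM + 1), a scale that understates the change of low genes. Of the 7 genes, 6 reached that minimum, IFIT5 only through shAPC, and IFITM1 missed it at 19.8 CPM. IFIT1, IFIT2, IFIT3 and IFITM3 were past 2-fold, and ranked 21, 27, 32 and 131 from the highest ratio. IFIT5 ranked 473 and IFITM2 2964. With TMM the split over all genes was 89 higher (1.72%) and 64 lower (1.24%). Of the 6 members that reached the minimum, IFIT1, IFIT2 and IFIT3 alone remained past 2-fold. IFITM1, not counted, had a log2 ratio of 1.64 with TMM.

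At day 7 the order was turned round. All 7 genes were lower in shAPC than in shScr, 6 of them with intervals below no change, a call not counted over all genes. IFITM1 differed most, at a log2 ratio of -1.64 (-2.14 to -1.15), followed by IFIT2 at -1.01 (-1.24 to -0.78), IFIT1 at -0.89 (-1.05 to -0.74) and IFIT3 at -0.76 (-0.92 to -0.60). IFITM3 was at -0.61 (-0.65 to -0.58) and IFITM2 at -0.36 (-0.40 to -0.31). The interval of IFIT5, -0.07 (-0.26 to 0.12), included no change, and its sign turned with all deposited barcodes (0.07) and without the 5% of cells with the most UMIs (0.005). TMM moved these ratios by -0.01 only. The median log2 ratio of all genes was -0.10. Of 4573 genes, 36 (0.787%) were at least 2-fold higher and 81 (1.77%) at least 2-fold lower, and none of the 4 members that reached 20 CPM (IFIT1, IFIT3, IFITM2 and IFITM3) was past 2-fold. Within cells of 20000 or more UMIs the log2 ratio was -0.65 for the IFIT sum and -0.48 for the IFITM sum, and within cells under 2000 UMIs it was -1.39 and -0.47. The direction was thus the same in shallow and deep cells.

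**Figure D2:**
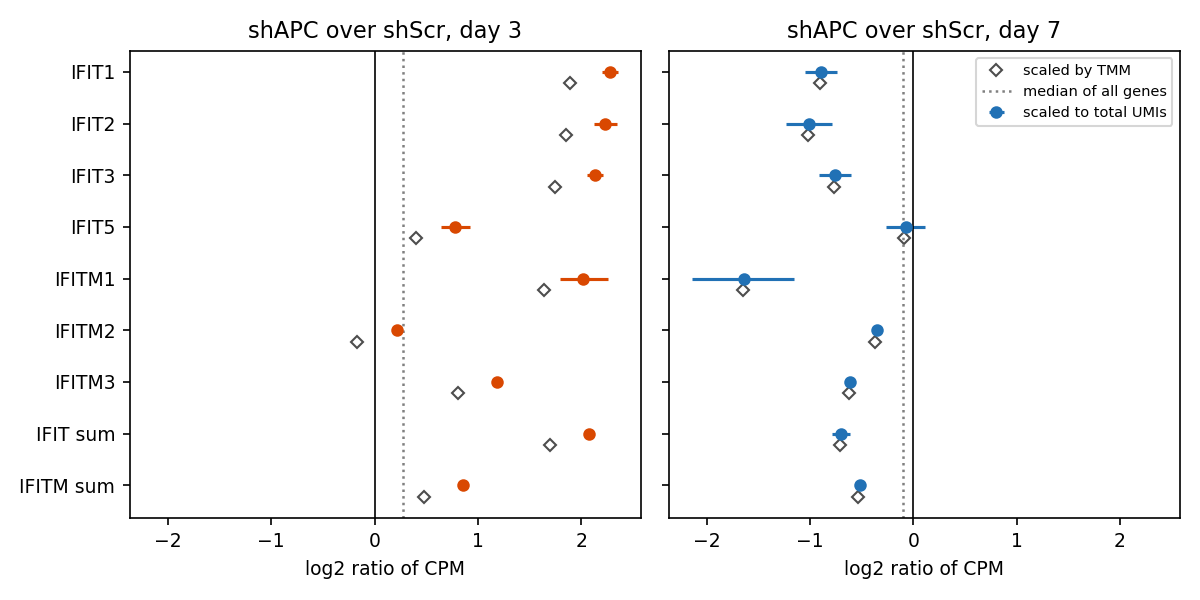
Log2 ratio of CPM, shAPC over shScr, for the 7 genes and the sums of both families at day 3 (left) and day 7 (right). Filled circles with bars are the ratios scaled to total UMIs with 95% counting intervals, open diamonds the same with TMM scaling, and the dotted line the median of all genes tested. At day 3 IFIT1 to IFIT3 and IFITM1 lie near 2, IFITM3 near 1.19 and IFIT5 and IFITM2 below it, and at day 7 all circles lie at or below 0.

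The families were then set against each other within each library, where library scaling has no part. The 4 IFIT genes together were at 121.6, 512.6, 96.2 and 59.4 CPM and the 3 IFITM genes at 1037, 1877, 859.7 and 599.9 CPM. The IFIT sum was 4.21-fold higher in shAPC at day 3 and the IFITM sum 1.81-fold, so the IFIT share of the UMIs of both families was 10.5% in shScr and 21.4% in shAPC. Expressed as IFIT UMIs per IFITM UMI, the ratio was 0.117 (0.114 to 0.121) in shScr day 3, 0.273 (0.269 to 0.278) in shAPC day 3, 0.112 (0.108 to 0.116) in shScr day 7 and 0.0990 (0.0941 to 0.104) in shAPC day 7. The contrast of shAPC with shScr was 2.33-fold at day 3 (log2 1.22, 1.17 to 1.27) and -0.18 (-0.27 to -0.09) on the log2 scale at day 7. The IFIT genes thus changed more than the IFITM genes at both days, upwards at day 3 and, by a small margin, downwards at day 7, where the contrast turned to 0.04 when all deposited barcodes were summed.

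The contrast depended on which IFITM gene stood for its family. Against IFITM2 alone the IFIT sum was 3.63-fold higher in shAPC at day 3 (log2 1.86, 1.81 to 1.92), against IFITM3 1.85-fold (0.89, 0.84 to 0.94), and against IFITM1 1.04-fold (0.05, -0.19 to 0.29), an interval that included no difference. In shAPC day 3 the summed IFIT UMIs, 17911, were as many as those of IFITM2, 17898. At day 7 the contrast was -0.34 (-0.44 to -0.24) against IFITM2, -0.08 (-0.18 to 0.01) against IFITM3 and 0.94 (0.45 to 1.46) against IFITM1. IFITM3 and IFITM2, which were both abundant, also parted from each other. There were 1.34, 2.63, 1.81 and 1.52 IFITM3 UMIs per IFITM2 UMI, a 1.96-fold higher ratio in shAPC at day 3 (log2 0.97, 0.94 to 1.01) and -0.26 (-0.31 to -0.20) at day 7. A division into inducible IFIT and basal IFITM genes did not describe these levels, since IFIT5 changed less than IFITM3 and IFITM1 was neither abundant nor stable.

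**Figure D3:**
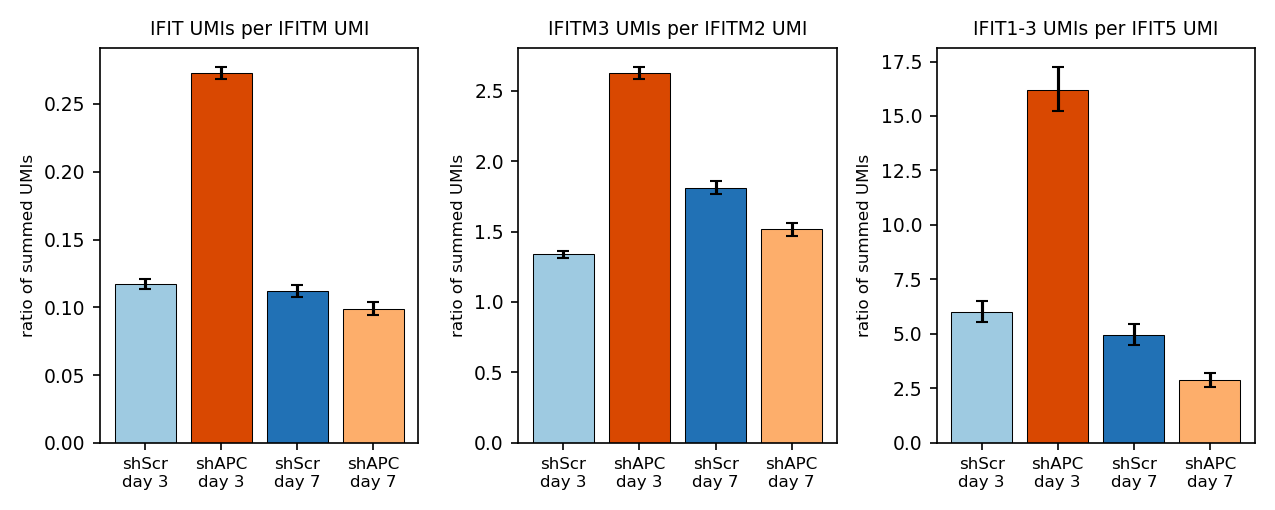
Ratios of summed UMIs within each library, with bars from 0 and 95% counting intervals: IFIT over IFITM genes (left), IFITM3 over IFITM2 (middle) and IFIT1 to IFIT3 over IFIT5 (right). All 3 ratios are highest in shAPC day 3, at 0.273, 2.63 and 16.2, and those of the left and right panels are lowest in shAPC day 7.

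Time was followed within each shRNA. In shScr, day 7 over day 3, the IFIT sum had a log2 ratio of -0.34 (-0.40 to -0.27) and the IFITM sum of -0.27 (-0.29 to -0.25), and no member was past 2-fold against 0.329% of 4556 genes higher and 0.79% lower. The direction of the IFIT sum depended on the depth of the cells. It was -0.44 (-0.51 to -0.37) in cells of 20000 or more UMIs, 0.02 (-0.23 to 0.27) in those from 2000 to under 20000 and 0.78 (0.16 to 1.45) in those under 2000, of which shScr had 217 at day 3 and 1402 at day 7. IFITM2 had the most negative ratio there, -0.54 (-0.57 to -0.50), and IFITM1 was the only member with a positive one, 0.04 (-0.27 to 0.36), an interval that included no change. In shAPC the IFIT sum was 8.63-fold lower at day 7 than at day 3 (log2 -3.11, -3.18 to -3.04) and the IFITM sum 3.13-fold lower (-1.65, -1.67 to -1.62). Of the 6 members that reached 20 CPM, 5 were past 2-fold lower (IFIT1, IFIT2, IFIT3, IFITM2 and IFITM3), against 5.78% of 5176 genes lower and 0.058% higher. IFIT1, IFIT2, IFIT3 and IFIT5 reached that minimum only through day 3, where they were high. With TMM, 2.69% of genes were lower and 0.541% higher, and IFITM2 left the called members. IFIT2 was 12.0-fold lower, IFIT1 11.4-fold, IFIT3 10.0-fold and IFITM1 12.2-fold, whereas IFIT5 was 1.94-fold lower. IFIT1 held rank 8 and IFIT2 rank 9 from the lowest ratio of all genes. The 4 comparisons share libraries, so their values stand side by side and are not independent of each other.

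Shares of cells were compared after each cell had been thinned to 2000 UMIs, since the depth of the libraries differed. At day 3, 17.4% (14.9 to 20.0) of 899 shScr cells held an IFIT UMI, against 43.5% (39.8 to 47.4) of 673 shAPC cells. At day 7 the shares were 13.2% (11.3 to 15.2) among 1198 shScr cells and 10.2% (8.48 to 12.2) among 1087 shAPC cells, and these intervals overlapped. Without thinning the shares were 62.7%, 85.7%, 33.8% and 42.4%, an order at day 7 that went against the CPM and is not read. The cells under 2000 UMIs that were left out numbered 217, 115, 1402 and 391. An IFITM UMI was found in 84.2%, 96.0%, 76.8% and 67.2% of thinned cells, and in 93.0%, 97.2%, 74.5% and 84.5% without thinning. By gene, IFITM3 was found in 67.1%, 87.96%, 62.7% and 49.9% of thinned cells and IFIT1 in 6.90%, 25.9%, 5.76% and 3.31%. These cells are of 1 line, so no cell type that should lack the genes was at hand to give the share that free RNA alone would leave.

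The spread of UMIs over cells was described by gene, as the variance over the mean. Pure counting error gives a value of 1, and the excess over 1 also depends on the mean. In shAPC day 3 the mean was 0.311 for IFIT5 and 13.1 for IFITM3, so genes of unlike level are not ranked by this value. In cells thinned to 10000 UMIs, the variance over the mean of IFITM2 was 1.76, 1.82, 1.61 and 1.39, and that of IFIT5 was 1.07 to 1.09. IFITM3 was at 1.91, 3.29, 2.57 and 1.96, IFIT1 at 3.399, 7.86, 3.16 and 1.86 and IFIT3 at 2.51, 7.89, 2.49 and 1.74. That of IFIT2 was 7.59, 22.2, 4.49 and 4.57. In shAPC day 3, IFIT2 was found in 17.5% of the 576 thinned cells, at a mean of 0.944 UMIs, and IFIT5 in 25.7%, at a mean of 0.311. The 58 cells richest in each gene held 92.1% of the IFIT2 UMIs and 49.7% of the IFIT5 UMIs, a share that also depends on the mean. Over all kept cells without thinning, 7, 7, 20 and 10 cells held 50% of the IFIT2 UMIs of their library (0.627%, 0.888%, 0.769% and 0.677% of cells). For IFIT1 these were 60, 74, 51 and 44 cells and for IFITM3 221, 164, 282 and 272, against 263, 216, 366 and 360 for all genes together. The richest single cell held 150 IFIT2 UMIs in shScr day 3 and 495 in shAPC day 3. Most IFIT2 UMIs thus lay in few cells in all 4 libraries.

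The IFIT level of most other cells was higher as well. The median IFIT count per thinned cell was 3 in shAPC day 3 and 0 in the other libraries. At least 3 IFIT UMIs were found in 51.9% of the cells of shAPC day 3 against 11.5%, 8.60% and 6.36% in shScr day 3, shScr day 7 and shAPC day 7, and at least 10 in 8.16% against 1.57%, 1.85% and 0.647%. Exactly 3 of the 4 IFIT genes were found together in 115 and all 4 in 17 of 576 cells, against 31 and 5 of 765 in shScr day 3. Over the cells of a library, Spearman's rho among IFIT1, IFIT2 and IFIT3 was 0.21 to 0.38, and that of IFIT5 with them -0.04 to 0.12. All these counts come from the same cells at 1 depth and describe the libraries only.

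**Figure D4:**
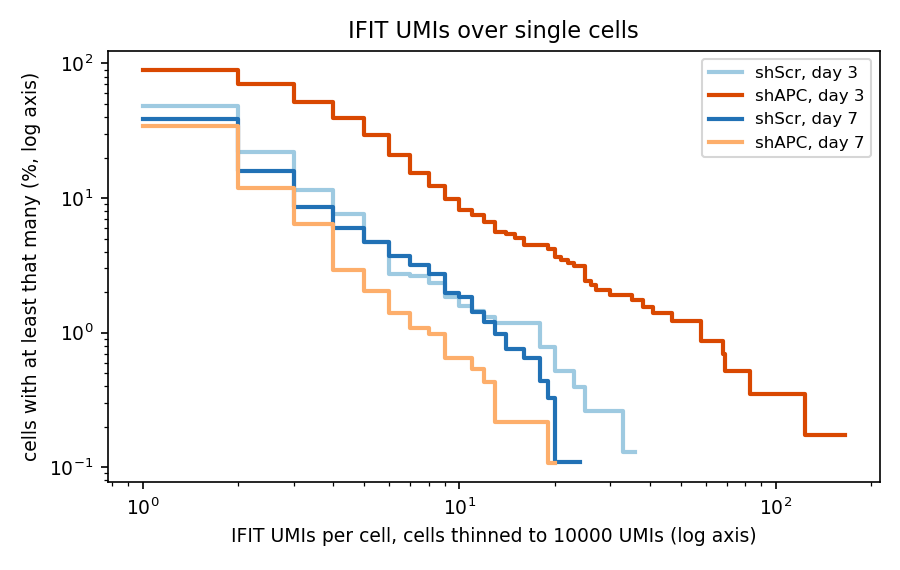
Share of cells (log axis) with at least a given number of IFIT UMIs (log axis) after thinning each cell to 10000 UMIs, 1 line per library. The line of shAPC day 3 runs above the others throughout, from 88.9% of cells with at least 1 UMI to 8.16% with at least 10 and a highest cell at 165, whereas the other lines start at 34.3% to 48.4% and end by 36.

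IFNB1, which encodes interferon beta, was looked at beside the IFIT genes cell by cell. It had 0, 829, 11 and 1 UMIs, in 0, 16, 3 and 1 cells. In shAPC day 3, 3 cells held 585, 176 and 53 of the 829 UMIs. The same 3 cells had 495, 385 and 101 IFIT2 UMIs, that is 28.1% of the IFIT2 UMIs of the library in 0.739% of its UMIs. They held 7.08% of the IFIT3 UMIs, 3.37% of those of IFIT1, 1.85% of those of IFITM3 and 0.564% of those of IFITM2. Of the other 13 cells with IFNB1, 12 had 0 to 3 IFIT2 UMIs and 1 had 56. Without the 3 cells IFIT2 was at 72.2 CPM and its day 3 log2 ratio was 1.77 (1.65 to 1.88) in place of 2.23, while that of the IFIT sum was 1.94. The 3 shScr day 7 cells with 5, 4 and 2 IFNB1 UMIs held no IFIT1 or IFIT2 UMI.

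Cells with more IFIT UMIs also had more of some IFITM genes. Cells thinned to 10000 UMIs were split by their summed IFIT1, IFIT2 and IFIT3 count into 0, 1 to 2, 3 to 9 and 10 or more. In shAPC day 3 the mean IFITM3 count was 12.0, 11.7, 14.2 and 17.9 in these ranges of 89, 226, 217 and 44 cells. The mean IFITM2 count was 4.87, 4.94, 5.33 and 5.89, and the mean IFITM1 count 0.0899, 0.119, 0.263 and 0.386. In shScr day 3 the first 3 ranges had 5.71, 6.20 and 7.23 IFITM3 UMIs and in shAPC day 7 3.27, 3.73 and 5.49, and the range of 10 or more held 12 and 4 cells there. The 12 cells of shScr day 3 had means of 10.2 IFITM3, 7.42 IFITM2 and 0.75 IFITM1 UMIs. For IFITM2 and IFITM1 these means lay above those of shAPC day 3 in that range. The cells of shAPC day 3 with no IFIT1, IFIT2 or IFIT3 UMI thus had a mean of 12.0 IFITM3 UMIs, more than the 7.23 of the shScr day 3 cells with 3 to 9 of them. The higher IFITM3 of shAPC day 3 was therefore seen also in cells in which none of these IFIT genes was detected at this depth.

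**Figure D5:**
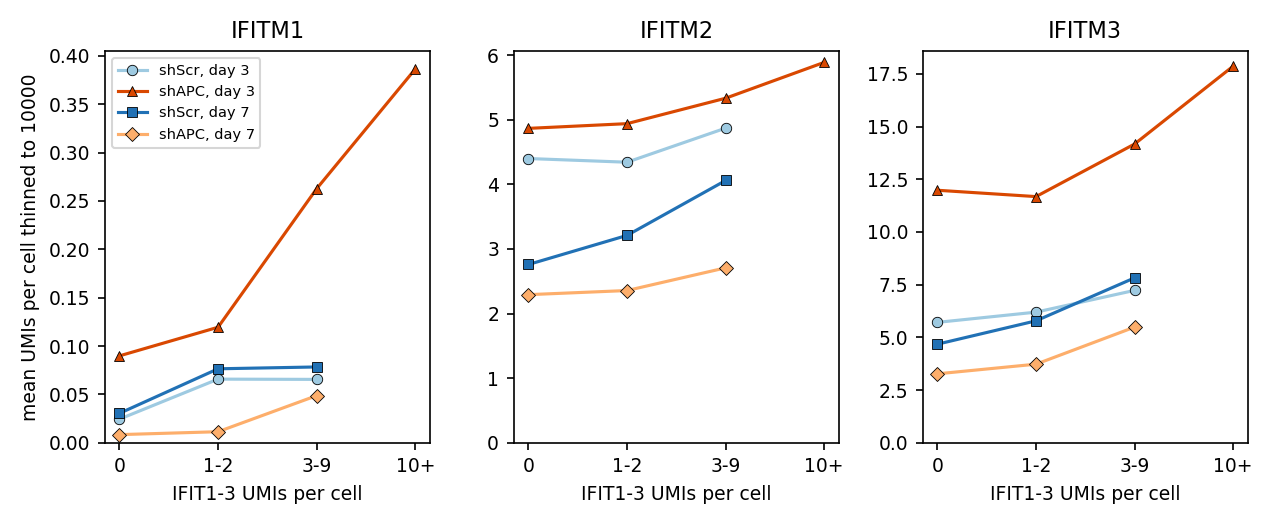
Mean UMIs per cell of IFITM1 (left), IFITM2 (middle) and IFITM3 (right) in cells thinned to 10000 UMIs, by their summed IFIT1 to IFIT3 UMIs, 1 line per library and only ranges of at least 20 cells. IFITM3 in shAPC day 3 goes from 12.0 to 17.9 and IFITM2 from 4.87 to 5.89, and at each range shAPC day 3 lies above the other libraries.

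Other genes of interferon signalling, 61 in all, were grouped by role. Those named here as past 2-fold at day 3 are read against the 3.86% of all genes, and every ligand, sensor, signalling factor and regulator among them reached 20 CPM only through shAPC, where it was high. Of the ligands, IFNB1 was at least 315-fold higher in shAPC at day 3, against a floor of 3 counts in shScr. That value rested on 3 cells with 814 of its 829 UMIs, and the 15 UMIs of the other cells were 5.74-fold over the same floor. IFNE had 38 and 65 UMIs, and IFNL1 had 1 UMI in shAPC day 3, while IFNA1, IFNK, IFNL2, IFNL3 and IFNG had none in either day 3 library. Of the 6 receptor genes none was past 2-fold at day 3, with IFNAR1 at 29.6 and 29.4 CPM and IFNAR2 at 8.87 and 9.07. Of 9 sensors and adaptors, 5 reached 20 CPM. Among these IFIH1 (4.90 and 27.4 CPM), which senses long foreign RNA as MDA5, was past 2-fold higher. So was DDX58 (6.99 and 23.9), which senses RNA ends as RIG-I. MAVS, the adaptor of both, was at 40.5 and 50.4. DHX58 missed the minimum at 2.09 and 9.73 CPM, a log2 ratio of 2.22 (1.87 to 2.59), and was not counted. TMEM173 (STING) was lower, at 46.2 and 29.7 CPM. Of the 8 signalling factors, IRF1 (9.85 and 56.4) and IRF7 (11.1 and 43.5) were past 2-fold, while STAT2 was at 36.3 and 58.6 and IRF9 at 4.15 and 7.18 CPM. Of the 5 negative regulators USP18, which blocks the receptor, was past 2-fold, at 9.25 and 29.4 CPM.

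The 22 other antiviral effectors all had day 3 intervals above no change, with a median log2 ratio of 2.30. Such intervals were not counted over all genes at either day. Of the 22, 18 reached 20 CPM, and all 18 were past 2-fold, against 3.86% of all genes. ISG20, RSAD2, HERC5 and CMPK2 missed the minimum and were not counted, although their log2 ratios also lay above 2.30. Of the 18, 11 reached 20 CPM only through shAPC, where they were high, so that the minimum partly fixed this count. With TMM 14 were past 2-fold, against 1.72% of all genes, and SAMHD1, TRIM22, SP110 and PARP9 were not. IFI6 went from 84.9 CPM in shScr to 824.8 in shAPC, MX1 from 15.0 to 108.9 and ISG15, a ubiquitin-like modifier, from 268.4 to 1199. The median over the 7 genes described here was 2.02 and over all genes 0.28. At day 7, 15 of the 22 had intervals below no change and 2 above (IFI44L and TRIM22), and the median log2 ratio was -0.56, against -0.76 for the 7 genes and -0.10 for all genes. ISG15 was at 312.8 CPM in shScr and 143.2 in shAPC at that day and IFI6 at 106.3 and 32.3. Both, with IFI27, were past 2-fold lower among the 7 effectors that reached 20 CPM, against 1.77% of all genes. BST2, CMPK2 and OAS1 had log2 ratios of -2.76, -1.45 and -1.09 but missed the minimum and were not counted. Of the closest relatives, IFIT1B and IFITM5 had no UMI in any library and IFITM10 had 1 to 6.

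The genes whose pattern was most like that of each family were sought among 5294 genes with at least 20 CPM in 1 library, by the distance between centred log2(CPM + 1) values over the 4 libraries. Nearest to the IFIT sum were OAS2 at 0.175, IFIH1 at 0.183, HERC6 at 0.295, OAS1 at 0.311 and IRF7 at 0.320. Each of these reached 20 CPM only through shAPC day 3, where it was high, so the minimum itself favoured low genes with such a peak. OAS2 was at 6.58, 31.7, 6.05 and 3.06 CPM. Nearest to the IFITM sum were ETS1 at 0.0957, APOL1 at 0.153, DTX3L at 0.176, TRIM25 at 0.196 and LGALS3 at 0.198. ETS1 was at 22.3, 39.3, 16.6 and 11.6 CPM. APOL1 and DTX3L likewise reached 20 CPM only through shAPC day 3. Measured the same way, IFIT5 lay nearer to the IFITM sum (0.559) than to the IFIT sum (1.59), and IFITM1 lay nearer to the IFIT sum (0.467) than to the IFITM sum (0.987). With 4 libraries such distances rest on few points and say nothing of shared control.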

How the data were processed

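The authors deposited raw UMI counts per gene and barcode from droplet 3′ scRNA-seq, aligned to hg38 and counted with Cell Ranger. The file headers give version 3.0.2 for shScr and 3.0.0 for shAPC, and the submitters' processing notes list 3.0.2, STAR and GRCh38. The annotation release is not given in the sources used here. The labels and the methods differ on the virus (retroviral or lentiviral) and on the version of the kit.

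Barcodes were kept from 200 genes and 500 UMIs upwards where MT- genes took less than 5% of UMIs, and their counts were summed per library, as CPM. Intervals were exact Poisson for CPM, exact conditional binomial for ratios, exact conditional for ratios of ratios and Clopper-Pearson for shares, at 95%. With 1 library per group no test was run, and edgeR (4.0.16, TMM) and DESeq2 (1.42.0, size factors) served only for other scalings. Genes past 2-fold were counted at 20 CPM or more in 1 library, with a pseudocount of 1 CPM. Bounds used a floor of 3 counts. Scrublet in Scanpy 1.11.5 (expected rate 5%) marked 11, 2, 0 and 9 cells, a rate at which it is taken not to have worked, and doublets were left in. Cells were thinned without replacement with NumPy 2.4.6. The fold rule and the intervals were tested on simulated data. Sequences came from RefSeq and positions from GENCODE 44.

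The genes and lists were chosen with earlier results of these data known. Named were all 7 genes, listed pathway genes with at least 4 UMIs in 1 library of a comparison (those below it are given as counts of UMIs), and the 5 nearest genes by pattern. The values of 1 listed gene are not reported here.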

Additional observations from a re-analysis of the deposited data

Results flagged for a closer look

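Every member and both family sums had a positive log2 ratio of shAPC to shScr at day 3 and a negative one at day 7. The difference between days was not tested, since each group held 1 library. Day 3 minus day 7, it was 2.77 for the IFIT sum and 1.38 for the IFITM sum, 3.17 for IFIT1, 3.24 for IFIT2, 2.89 for IFIT3, 0.85 for IFIT5, 3.66 for IFITM1, 0.57 for IFITM2 and 1.80 for IFITM3. The opposite signs of IFIT5 rest on a day 7 interval that included no change and are lost with all deposited barcodes, and those of IFITM2 are lost with TMM, where its ratio was negative at both days.

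The barcodes outside the filter, which the comparisons did not use, all exceeded the mitochondrial limit. At day 3 their IFIT sum was 349.95 CPM in shAPC and 159.7 in shScr. The log2 ratio was 1.13 (1.01 to 1.25), against 2.08 in kept cells, and that of the IFITM sum was 0.52 (0.47 to 0.57), against 0.86. IFIT1 was at 1.68 (1.46 to 1.90) in them and IFIT2 at 0.45 (0.11 to 0.80). At day 7 the barcodes outside the filter gave -0.55 for the IFIT sum and -0.57 for the IFITM sum. In shAPC day 7, where 1557 barcodes were removed, their IFIT sum was 87.4 CPM against 59.4 in kept cells. Their IFITM sum was 503.1 CPM against 599.9. The 1052 removed barcodes of shScr day 7 were at 127.6 against 96.2 CPM for the IFIT sum and 748.5 against 859.7 for the IFITM sum.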

How the results depend on the processing

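The log2 ratios of both family sums kept their sign under all alternatives tried. At day 3 the IFIT sum was 2.08 and became 1.70 with TMM, 1.71 with DESeq2 size factors, 1.96 with totals without mitochondrial and ribosomal protein genes, 1.96 with all deposited barcodes, 2.00 without the 5% of cells with the most UMIs, 1.96 without cells with an IFNB1 UMI, 2.13 as the mean over cells of CPM and 1.94 without the 3 cells richest in IFNB1, an alternative chosen after seeing the data. The IFITM sum was 0.86 and became, under the first 5 of these, 0.48, 0.49, 0.74, 0.81 and 0.81, and 0.79 as the mean over cells. Their contrast was 1.22 and became 1.15 with all deposited barcodes, 1.12 without IFNB1 cells and 1.34 as the mean over cells. At day 7 the IFIT sum was -0.70 and became -0.54 with all deposited barcodes and -1.20 as the mean over cells. The IFITM sum was -0.52 and became -0.46 with totals without mitochondrial and ribosomal protein genes, -0.58 with all barcodes and -0.59 as the mean over cells. Their contrast was -0.18, became -0.61 as the mean over cells and turned to 0.042 with all deposited barcodes. For IFITM2 at day 3 the sign changed, to -0.17 (TMM) and -0.15 (DESeq2). That of IFIT5 at day 7 changed from -0.07 to 0.069 with all deposited barcodes and 0.005 without the 5% of cells with the most UMIs, with intervals that included no change. The cause was not tested.

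Of the counts past 2-fold at day 3, 200 higher and 22 lower became 89 and 64 with TMM, 91 and 58 with DESeq2 size factors, 491 and 37 with no minimum and 37 and 5 at 100 CPM. At day 7, 36 and 81 became 164 and 135 with no minimum and 7 and 27 at 100 CPM, and the 36 became 23 with a pseudocount of 5 CPM. In shAPC over time, 3 and 299 became 28 and 139 with TMM or DESeq2 size factors, 42 and 561 with no minimum and 1 and 68 at 100 CPM, and in shScr over time 15 and 36 became 41 and 74 with no minimum and 3 and 17 at 100 CPM. Shares of cells moved with the depth of thinning in 33 of 36 cases at 1000 UMIs and 34 of 36 at 5000 UMIs. Choices added after seeing the data were the sum of IFIT1 to IFIT3, the single IFITM denominators, thinning to 10000 UMIs, the ranges of depth, the removed barcodes, IFNB1 without its 3 richest cells and TMM for the pathway genes. No paired analysis was possible because the labels carry no replicate numbers and each group holds 1 library. Depth limits IFITM1 most, with 46 UMIs in shAPC day 7.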
